A study of Sus scrofa with 8 samples.

Results

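Toll-like receptors are pattern receptors that bind molecules of microbes or of damaged cells, and the genes described here are the receptors TLR2, TLR3, TLR4, TLR5, TLR7, TLR8 and TLR9, the co-receptors LY96 and CD14, and the adaptor MYD88. The genes were chosen by name, and every probeset that the annotation of the array or that of the study names for one of them was kept. The array reads each transcript through a probeset, several short probes designed against its sequence. The choice gave 15 probesets of 7 genes among the 23999 non-control probesets, 13 of them named by the annotation of the array and 2 for MYD88 named by that of the study alone. TLR3, TLR5 and TLR7 had no probeset by this choice, so these 3 of the 10 genes were not analysed here. RefSeq lists TLR7 as a synonym in its pig TLR8 record.

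Endometrium, the lining of the uterus, was taken on day 12 of gestation from 4 Meishan gilts (M12) and 4 Yorkshire gilts (Y12), a gilt being a female in her first pregnancy. Meishan is a prolific Chinese breed and Yorkshire a breed of European origin. The gilts had been mated naturally to boars of their own breed after at least 1 earlier estrus, and the tracts used were those that held elongated conceptuses, so the breeds of dam and conceptus cannot be told apart. Each gilt gave 1 one-colour Affymetrix Porcine Genome array, each gilt being a separate animal, and precision is limited by there being 4 arrays per breed.

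The receptors at the cell surface recognise mainly components of bacterial envelopes, and those in endosomes recognise nucleic acids. TLR4 responds to lipopolysaccharide of gram-negative bacteria, which CD14 binds and hands over to LY96 (also called MD-2), the small protein that sits on TLR4 and holds the ligand. Most of these receptors recruit MYD88, through which kinases and ubiquitin ligases turn on NF-kB and the genes of inflammation. In the uterus they are known from epithelium, stroma and resident immune cells.

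The deposited values were linear signals scaled to a common level, with array medians of 168 to 195 in M12 and 171 to 187 in Y12. For the comparison they were put on the log2 scale and centred on each array's median, and a centred signal below is this value turned back to the linear scale, in arbitrary units. A breed mean is the geometric mean of 4 gilts, and a log2 difference is Meishan minus Yorkshire. A probeset was called at a limma adjusted p under 0.1 over all 23999 probesets. Signals under 64 were taken as near background, so a fold is given only where both breed means reached 64. Levels of different probesets depend on their probes and were not read as relative amounts of transcripts. They served to pick the brightest probeset of a gene, to form differences within an array and to sum lists of markers.

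No probeset of these genes was called (0 of 15), against 0.908% of all probesets (218 of 23999), and the adjusted p ranged from 0.132 for LY96 to 0.938 for a dim MYD88 probeset. At an unadjusted p under 0.05 there were 3 of the 13 probesets that the array names (LY96 and the dimmest probesets of TLR4 and CD14), where 14.8% of all probesets lay. Toward Meishan lay 7 of the 13, a side on which 51.7% of all probesets lay, and toward Yorkshire 6, with a median log2 difference of 0.24 beside 0.02 over all probesets tested. The 8 probesets with a mean of at least 64 in a breed lay 3 toward Meishan and 5 toward Yorkshire, and of the 5 dimmer ones that the array names 4 lay toward Meishan. Dim probesets of the whole array leaned the same way, since with all probesets split by signal into 10 groups of equal size the dimmest group had a median log2 difference of 0.46 and the group that holds LY96 one of -0.09.

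**Figure D1:**
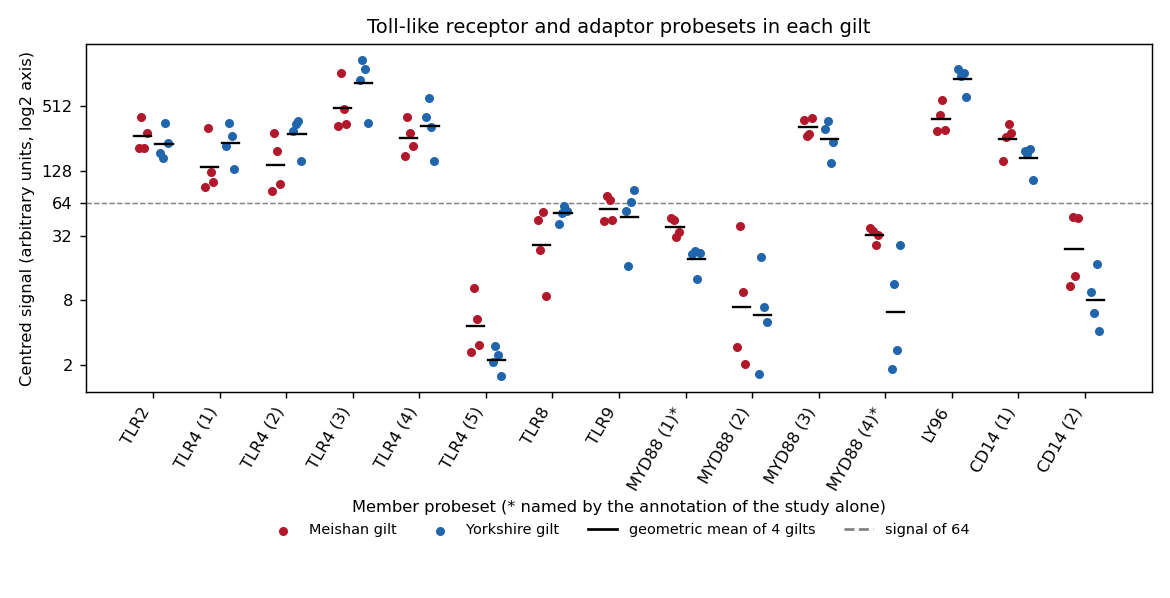
Centred signal (arbitrary units, log2 axis) of every probeset of the Toll-like receptor and adaptor genes in each of 4 Meishan (red) and 4 Yorkshire (blue) gilts, with black bars for geometric means and a dashed line at a signal of 64; numbers in brackets follow the alphabetical order of a gene's probeset names, and an asterisk marks a name from the study's annotation alone. All 4 Meishan gilts lie below all 4 Yorkshire gilts for LY96 and above them for MYD88 (1), which lies below 64 in every gilt. The gilts of both breeds overlap for every other probeset, including TLR2, the 5 TLR4 probesets and both CD14 probesets.

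LY96, the lipopolysaccharide-holding partner of TLR4, had the lowest p of these genes and was of greater abundance in every Yorkshire gilt than in any Meishan gilt. Its centred signal (probeset Ssc.25550.1.S1_at) was 304, 427, 585 and 310 in the Meishan gilts 1 to 4 and 1150, 989, 1042 and 623 in the Yorkshire gilts 1 to 4. The highest Meishan gilt and the lowest Yorkshire gilt were close to each other, at 585 and 623, and the breeds did not overlap. Of all probesets, 10.1% did not overlap between the breeds, and 5.09% did so with Yorkshire above.

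The breed means of LY96 were 392 in M12 and 927 in Y12, so LY96 had 2.37-fold greater abundance in the Yorkshire gilts (log2 difference of -1.24 with SE 0.29, 95% interval -1.92 to -0.57, n = 4 gilts per breed, limma adjusted p = 0.132). LY96 thus missed the threshold. It passed with signals below 32 set to 32 (limma adjusted p = 0.0950), with an intensity trend in the prior (0.0504), with Storey q-values (0.0962) and after dim probesets were left out (0.0802). Under these settings 3.6%, 2.61%, 2.22% and 3.11% of the probesets tested were called. LY96 missed the threshold with no further scaling (limma adjusted p = 0.173), quantile normalization (0.186) and a replicate block (0.235). It was also missed with an ordinary linear model (0.161) and with each gilt left out in turn (0.123 to 0.272). The log2 difference of LY96 lay between -1.44 and -1.12 with any single gilt left out. The study, with its own model and q-values, counted LY96 as differentially expressed on these same arrays. It also assayed LY96 by quantitative PCR in RNA of the same gilts and reported the direction seen on the array. Both rest on the same animals as the values here. In whole tissue, fewer cells of a type and less RNA per cell cannot be told apart.

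CD14, the co-receptor that delivers lipopolysaccharide to LY96 and is abundant on monocytes and macrophages, lay on the other side. At its brighter probeset (Ssc.4978.1.S1_at) the centred signal was 157, 265, 353 and 289 in the Meishan gilts and 196, 186, 207 and 106 in the Yorkshire gilts. Meishan gilts 2, 3 and 4 lay above every Yorkshire gilt, and Meishan gilt 1 lay among them. The means were 255 in M12 and 168 in Y12, 1.52-fold higher in Meishan (log2 difference 0.60, SE 0.32, 95% interval -0.14 to 1.34, limma adjusted p = 0.431), and 0.38 was left of the difference without Yorkshire gilt 4.

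The second CD14 probeset (Ssc.4978.2.S1_at) was near background, with centred signals of 10.8, 47.6, 13.6 and 47.0 in Meishan and 9.53, 6.12, 17.4 and 4.10 in Yorkshire. It leaned to Meishan as well (log2 difference 1.58, SE 0.64, limma adjusted p = 0.309). With signals below 32 set to 32 the difference was 0.28.

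TLR4, the receptor itself, was measured by 5 probesets that share one gene and are no replicates of each other. At the brightest (Ssc.12781.1.A2_at) the centred signal was 334, 1048, 480 and 349 in the Meishan gilts and 895, 1394, 1145 and 356 in the Yorkshire gilts. Meishan gilt 2 stood with the Yorkshire gilts and Yorkshire gilt 4 with the Meishan gilts, and the breeds overlapped. The means were 492 in M12 and 844 in Y12 (1.72-fold, log2 difference -0.78, SE 0.52, 95% interval -1.97 to 0.42, limma adjusted p = 0.530).

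The next TLR4 probesets lay toward Yorkshire as well. Ssc.12781.1.A1_at read 91.3, 320, 126 and 102 in Meishan and 221, 361, 274 and 133 in Yorkshire (log2 difference -0.74, SE 0.46). Ssc.12781.1.A1_s_at read 82.7, 291, 195 and 96.1 in Meishan and 303, 352, 378 and 159 in Yorkshire (-0.96, SE 0.47). Ssc.19703.1.S1_s_at read 179, 412, 291 and 217 in Meishan and 411, 618, 327 and 158 in Yorkshire (-0.37, SE 0.45). In each of these probesets Meishan gilt 2 was the highest Meishan gilt and Yorkshire gilt 4 the lowest Yorkshire gilt, and none was called (limma adjusted p from 0.388 to 0.741). The difference at Ssc.19703.1.S1_s_at lay between -0.74 without Yorkshire gilt 4 and -0.084 without Yorkshire gilt 2. At the brightest probeset it was -1.19 without Yorkshire gilt 4, and at Ssc.12781.1.A1_at it was -1.14 without Meishan gilt 2.

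The fifth TLR4 probeset (Ssc.28998.1.A1_at) ran at the bottom of the scale and leaned the other way. Its centred signals were 2.62, 10.3, 5.38 and 3.05 in Meishan and 2.13, 3.01, 2.48 and 1.56 in Yorkshire, with a log2 difference of 1.04 (SE 0.45, limma adjusted p = 0.336). All of these signals lay under 32, so no difference was left once signals below 32 were set to 32. The median log2 difference of all probesets in the same signal group, the dimmest of 10, was 0.46.

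Variation of TLR4 between gilts of one breed was wide and shared by its probesets. The pooled standard deviation of the 4 brighter probesets lay between the 93.7th and the 96.6th percentile of probesets of like signal. As deviations from the breed means, the log2 signals of the 5 probesets correlated with each other at Pearson's r of 0.803 to 0.966 over 8 gilts, a description of values that share the same arrays. The log2 ratio of 3′ to 5′ signal of the GAPDH control probesets, a measure of RNA integrity and of labelling, was 1.77, 2.84, 2.19 and 2.05 in Meishan and 2.02, 2.32, 2.51 and 1.76 in Yorkshire. Meishan gilt 2, the highest Meishan gilt for TLR4, thus had the highest ratio, and Yorkshire gilt 4, the lowest Yorkshire gilt for TLR4, had the lowest. The same ratio of the actin controls was 0.64, 1.73, 1.54 and 1.40 in Meishan and 1.01, 1.31, 2.15 and 1.18 in Yorkshire, where Meishan gilt 2 was again the highest Meishan gilt, but Yorkshire gilt 3 was highest of all and Yorkshire gilt 1, not 4, the lowest of its breed. The part of RNA integrity in the TLR4 values was not tested. Between the breeds the GAPDH ratio differed by 0.06 (exact permutation p = 0.83, two-sided).

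**Figure D2:**
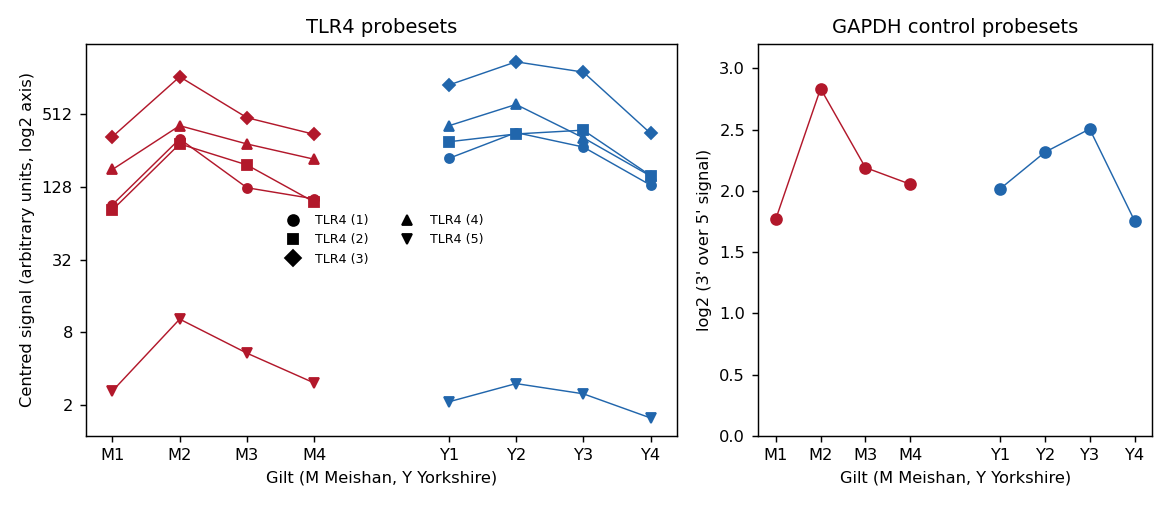
Left, centred signal (arbitrary units, log2 axis) of the 5 TLR4 probesets in each gilt; right, log2 of the 3′ over the 5′ signal of the GAPDH control probesets in the same gilts. The actin controls are not plotted. Lines join the gilts of a breed for reading only, red for Meishan and blue for Yorkshire, and all 5 probesets are highest among Meishan gilts in gilt 2 and lowest among Yorkshire gilts in gilt 4.

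Whether the partners of the lipopolysaccharide receptor differed between breeds in relation to each other was tested within arrays, which removes the scaling between arrays. The quantity was the difference in log2 signal of a pair of probesets on one array, whose size carries the properties of the probes, so that its breed difference alone was read. LY96 minus CD14 was 0.95, 0.69, 0.73 and 0.10 in the Meishan gilts (mean 0.62, SD 0.36) and 2.55, 2.41, 2.33 and 2.55 in the Yorkshire gilts (mean 2.46, SD 0.11). The lowest Yorkshire gilt lay far above the highest Meishan gilt, and the spread within Yorkshire was small.

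The balance of LY96 to CD14 was thus 3.59-fold higher in Yorkshire (log2 difference -1.84, SE 0.19, two-sided exact permutation p = 0.0286, the smallest that 70 assignments of 8 gilts allow, 0.0857 after Benjamini-Hochberg adjustment over 3 pairs). The difference was -1.78 after quantile normalization and lay between -1.96 and -1.67 with any single gilt left out. Within a breed the 2 genes moved together, with r = 0.825 for their deviations over 8 gilts, given as a description. The pairs had been set with the breed differences of these genes known from the same arrays, so the test is not independent of them.

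TLR4 minus CD14 was 1.09, 1.98, 0.44 and 0.28 in Meishan and 2.19, 2.90, 2.47 and 1.74 in Yorkshire. The breeds overlapped at Meishan gilt 2 and Yorkshire gilt 4. The difference was -1.38 (SE 0.46, 2.60-fold, two-sided exact permutation p = 0.0571, 0.0857 adjusted over 3 pairs), and it passed an adjusted p of 0.1 with all gilts but not without Meishan gilt 3 or 4 or Yorkshire gilt 1, 2 or 3 (0.129 in each). For LY96 minus TLR4 a breed difference was not shown (-0.47, SE 0.44, two-sided exact permutation p = 0.343, 0.343 adjusted), with Meishan values from -1.30 to 0.29 and Yorkshire values from -0.50 to 0.81. Each gene stood in these pairs at its brightest probeset alone. The log2 difference of TLR4 was -0.78 there and -0.74, -0.96 and -0.37 at its next probesets, so the results of the pairs with TLR4 depend on this choice. Pairs with the other TLR4 probesets were not tested.

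**Figure D3:**
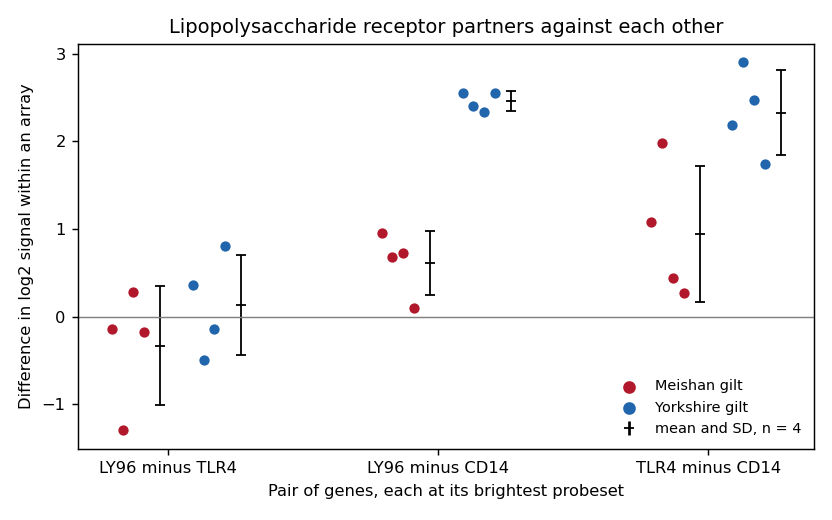
Difference in log2 signal within an array for each pair of LY96, TLR4 and CD14, each at its brightest probeset, in 4 Meishan (red) and 4 Yorkshire (blue) gilts, with mean and SD. LY96 minus CD14 lies between 0.10 and 0.95 for Meishan and between 2.33 and 2.55 for Yorkshire, and the other pairs overlap between breeds.

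TLR2, the surface receptor for bacterial lipoproteins, was not called, and its gilts overlapped between breeds. Its probeset (Ssc.17337.1.S1_at) read 211, 410, 209 and 293 in Meishan and 188, 171, 356 and 232 in Yorkshire. The highest gilt of each breed, Meishan gilt 2 and Yorkshire gilt 3, stood above the other gilts of its breed. The log2 difference was 0.25 (means of 270 and 227, SE 0.32, 95% interval -0.48 to 0.98, limma adjusted p = 0.760). The difference was 0.049 without Meishan gilt 2 and 0.47 without Yorkshire gilt 3.

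Of the endosomal receptors, TLR8 recognises single-stranded RNA and TLR9 DNA with unmethylated CpG, and both ran near background. TLR8 (Ssc.17224.1.S1_at) read 44.4, 23.5, 53.5 and 8.74 in Meishan and 41.5, 52.5, 60.2 and 54.1 in Yorkshire, so that 0 gilts reached 64. The Yorkshire gilts were close together and the Meishan gilts were spread, which put the log2 difference at -0.97 (SE 0.54, 95% interval -2.20 to 0.27, limma adjusted p = 0.448). Without Meishan gilt 4, the lowest, the TLR8 difference was -0.43, and with signals below 32 set to 32 it was -0.39. TLR9 (Ssc.16634.1.S1_at) read 43.9, 75.4, 68.8 and 44.4 in Meishan and 54.8, 16.8, 65.4 and 85.1 in Yorkshire. For TLR9, 2 gilts of each breed reached 64, and the log2 difference was 0.24 (SE 0.50, 95% interval -0.91 to 1.40, limma adjusted p = 0.859). Without Yorkshire gilt 2, the lowest, it was -0.26, and with signals below 32 set to 32 it was 0.013.

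MYD88, the adaptor shared by these receptors other than TLR3, was measured by 4 probesets, of which 1 was bright. That probeset (Ssc.23503.1.S1_at) read 385, 269, 282 and 397 in Meishan and 313, 376, 152 and 239 in Yorkshire. The breeds overlapped, and the means were 328 and 256 (1.28-fold, log2 difference 0.36, SE 0.31, 95% interval -0.36 to 1.08, limma adjusted p = 0.637). The difference was 0.11 without Yorkshire gilt 3 and 0.55 without Yorkshire gilt 2.

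The second MYD88 probeset that the array names (Ssc.23503.1.A1_at) was near background, with Meishan gilts between 2.02 and 39.3 and Yorkshire gilts between 1.63 and 20.3 (log2 difference 0.25, SE 1.06, limma adjusted p = 0.938). Its direction turned after quantile normalization (-0.25) and without Meishan gilt 2 or Yorkshire gilt 1 (-0.59 and -0.36).

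The probesets that the study's annotation alone assigns to MYD88 came from a list of differences that the study drew from these same arrays, so their breed differences are a description and no independent evidence. Ssc.23492.1.A1_at read 46.6, 45.0, 30.9 and 34.7 in Meishan and 21.4, 23.3, 12.5 and 22.01 in Yorkshire (log2 difference 1.01). The breeds did not overlap at this probeset, as was so for 10.1% of all probesets. Ssc.6463.2.S1_at read 37.7, 35.0, 25.9 and 32.4 in Meishan and 1.82, 11.3, 2.72 and 26.0 in Yorkshire (2.39). All of these signals were below 64, and with signals below 32 set to 32 the differences were 0.29 and 0.10. The array annotation gives neither probeset to MYD88.

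Probesets of one gene were also compared with each other within arrays. Of 8 such pairs (4 for TLR4, 3 for MYD88 and 1 for CD14), none passed an adjusted p of 0.1. With 70 assignments the smallest exact permutation p is 0.0286, which becomes 0.229 for a single pair among 8, so no pair could have passed alone and the absence of calls says little. The lowest p was that of the brightest against the dimmest TLR4 probeset (log2 difference -1.82, exact permutation p = 0.0286, adjusted p = 0.229), the pair whose members lie on opposite sides. The dimmest one read far below 64 in every gilt, and with signals below 32 set to 32 the difference of this pair was -0.78.

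**Figure D4:**
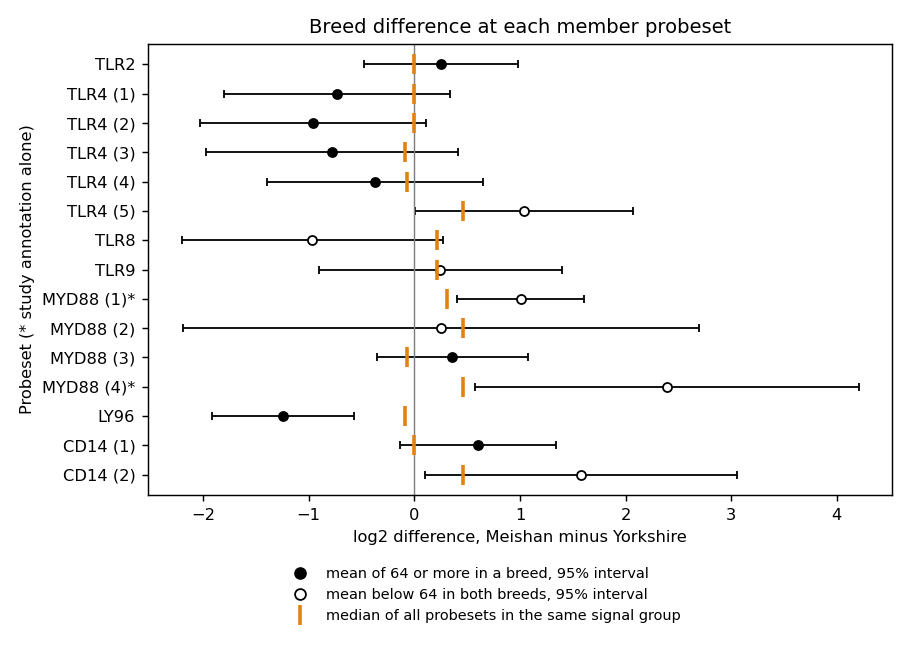
log2 difference, Meishan minus Yorkshire, of each probeset with its 95% interval from limma, filled where a breed mean reached 64 and open where both were below, and in orange the median of all probesets of the same signal group (10 groups of equal size). Among filled points LY96 lies at -1.24 with an interval below 0, and the other filled points have intervals that include 0.

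The other genes of the pathway were taken at the brightest probeset that the array names for each, in 5 lists by role. Of 80 genes listed, 57 were measured and 45 reached a mean of 64 in a breed. None of the 57 was called, against 0.908% of all probesets, 30 lay toward Meishan and 27 toward Yorkshire, and the median log2 difference was 0.04 beside 0.02 over all probesets tested. At an unadjusted p under 0.05 there were 3 toward Meishan and 2 toward Yorkshire, 5 of 57 in all, where 14.8% of all probesets lay.

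Among the other receptors and co-receptors, 6 of 8 genes were measured, 4 toward Meishan and 2 toward Yorkshire. BPI, a secreted protein that binds and neutralises lipopolysaccharide, read 106, 127, 154 and 141 in Meishan and 63.3, 74.1, 40.6 and 61.6 in Yorkshire. Its breeds did not overlap (log2 difference 1.16, SE 0.24, limma adjusted p = 0.105). BPI passed the threshold with Storey q-values (0.0762), with signals below 32 set to 32 (0.0612) and without dim probesets (0.0586). BPI missed the threshold with quantile normalization (0.113), an intensity trend (0.111), a replicate block (0.256) and each gilt left out in turn (0.113 to 0.221). It was also missed with no further scaling and with an ordinary linear model. LY86, also called MD-1 and the partner of the receptor CD180 as LY96 is of TLR4, read 65.6, 116, 96.9 and 83.8 in Meishan and 244, 174, 327 and 106 in Yorkshire (2.21-fold, log2 difference -1.14, SE 0.37, limma adjusted p = 0.216). LBP, which carries lipopolysaccharide to CD14, differed by 0.62 (limma adjusted p = 0.491).

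All 3 measured chaperones of receptor traffic lay toward Meishan, from 0.05 for LRRC59 and 0.39 for HSP90B1, the chaperone that folds Toll-like receptors, to 0.68 for UNC93B1, which carries the endosomal receptors and was near background. Of the signalling proteins, 15 of 29 were measured, 5 toward Meishan and 10 toward Yorkshire, with a median of -0.09. TICAM2, the adaptor that links TLR4 to the interferon branch, had means of 110 in M12 and 61.9 in Y12 and no overlap between breeds (log2 difference 0.83, SE 0.25, limma adjusted p = 0.200). The kinase TBK1 of that branch lay on the other side, at 1217 and 1984 (-0.71, limma adjusted p = 0.368), as did the ubiquitin ligase TRAF6 (-0.57, limma adjusted p = 0.359).

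Of the inhibitors, 11 of 14 were measured, 7 toward Meishan and 4 toward Yorkshire. The deubiquitinase CYLD had the lowest p, with means of 248 in M12 and 397 in Y12 (-0.68, SE 0.23, limma adjusted p = 0.230), followed by the NF-kB inhibitor NFKBIB (0.49) and by LGALS3 (0.27). Of the genes that Toll-like receptors are known to induce, 22 of 25 were measured, 11 on each side, with a median of 0.05. CD80, a costimulatory ligand, had means of 98.9 and 61.6 (0.68, limma adjusted p = 0.256), and IL12A (-1.10) and the growth factor CSF3 (1.54) were below 64 in both breeds.

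**Figure D5:**
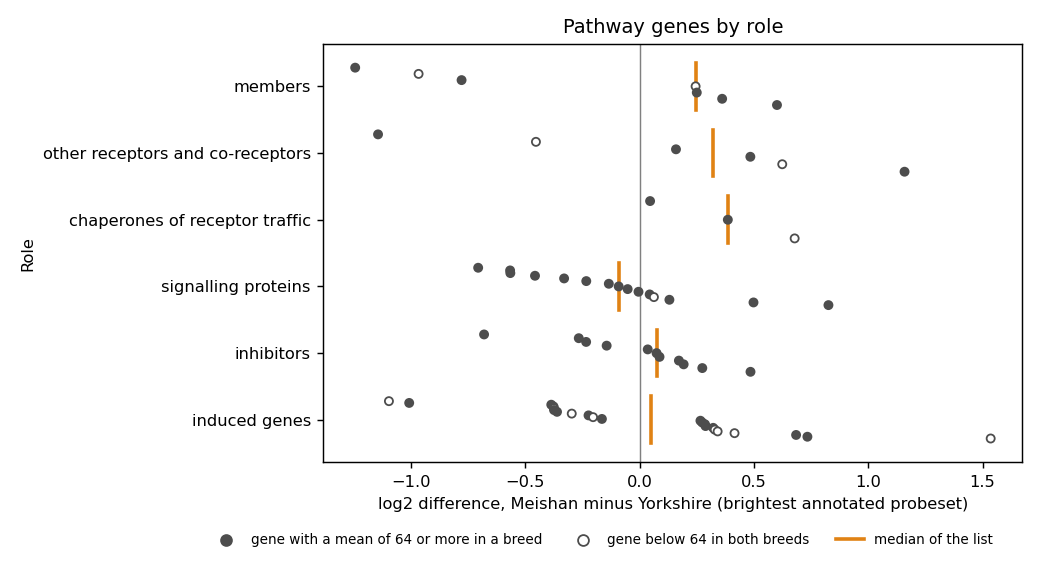
log2 difference, Meishan minus Yorkshire, of each gene of the pathway at its brightest annotated probeset, by role, filled where a breed mean reached 64, with the list median in orange. The medians run from -0.09 for signalling proteins to 0.39 for chaperones, and each list other than the chaperones holds genes on both sides of 0.

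Markers of cell types that carry Toll-like receptors were read beside these values. Of 10 macrophage and monocyte markers 6 were measured (CD14 among them), 3 toward Meishan and 3 toward Yorkshire, and 0 were called. Their summed centred signal ranged from 1434 to 2142 in M12 and from 1286 to 2013 in Y12. Such a sum follows mostly the brightest probesets of its list and is no measure of cell number. CD163 stood at means of 418 and 353 and AIF1 at 388 and 435, on opposite sides, and TYROBP, an adaptor of myeloid cells, at 193 and 296. The 4 of 7 neutrophil markers measured summed to 7417 to 27694 in M12 and 8950 to 24836 in Y12. The 6 of 8 T and NK cell markers summed to 425 to 841 in M12 and 553 to 729 in Y12. The 4 endothelial markers summed to 4731 to 4859 in M12 and 5060 to 6724 in Y12, with 3 of the 4 toward Yorkshire, 1 toward Meishan and 0 called. The 1 B cell marker measured of 5, CD79B, was called toward Meishan (80.4 against 34.3, log2 difference 1.23, limma adjusted p = 0.0920), but the call was lost with quantile normalization (0.168), an intensity trend (0.136), an ordinary linear model (0.110), a replicate block (0.220) and each gilt left out in turn (0.121 to 0.197). The part of any cell type in the values of LY96, CD14 or TLR4 was not tested.

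Markers of endometrium were present, as 5 of 6 endometrial genes were measured and all reached 64. ACP5 (uteroferrin) had means of 21430 and 23005 and PGR, the progesterone receptor, of 336 and 495. The 5 epithelial markers summed to 21595 to 35571 in M12 and 23159 to 36227 in Y12, and the 4 of 5 stromal markers measured summed to 33226 to 37313 and 25393 to 34595, with 0 called in either list. Of the 3 of 4 trophoblast markers measured, IFNG, which pig conceptuses secrete in early pregnancy, lay between 14.2 and 904 in M12 and between 33.5 and 6286 in Y12, and CYP17A1 had means below 64 (35.5 and 31.6). The 3 summed to 1193 to 1998 in M12 and 1206 to 7437 in Y12, and the part of conceptus material in the samples was not tested. Added control transcripts (27 spike-in probesets) were brighter on every Meishan array than on any Yorkshire array, by 1.06 on the log2 scale (exact permutation p = 0.0286), and their part in the results was not tested.

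For each gene, the named genes whose log2 signals deviated most like its own from the breed means were sought among 8011 probesets with a mean signal of at least 64. TLR4 was followed most closely by ENOPH1 (r = 0.987), RB1CC1 (0.984) and RBM12B (0.982), and TLR2 by MAP7D1 (0.974), SPECC1 (0.967) and OGFR (0.965). LY96 was followed by MEIS1 (0.972), ZWILCH (0.971) and TRAP1 (0.970), CD14 by DBP (0.987), FBXL4 (0.984) and EEF1AKMT1 (0.982), and MYD88 by MIA2 (0.988), WFDC2 (0.973) and COL1A2 (0.963). For TLR8 these were BAP1 (0.963), VPS39 (0.960) and BCKDHA (0.944), and for TLR9 FBXO32 (0.984), ATIC (0.971) and MAP4 (0.949). These are Pearson correlations over 8 gilts, the highest of all those searched, on shared arrays, and are given as a description.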

How the data were processed

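Endometrium of 4 Meishan and 4 Yorkshire gilts on day 12 of gestation was profiled, 1 array per gilt. The authors deposited intensities on a linear scale, computed from the scans in GCOS 1.2 (Affymetrix), with a mean of 500.1 on every array after trimming 2% at each end. Detection calls were not used here, and the labels name no batch or scan date. Signals of 23999 probesets (124 controls left out) were put on the log2 scale, centred on each array's median and compared by limma 3.58.1 in R 4.3.3 with breed as the one term (prior degrees of freedom 2.09), with Benjamini-Hochberg adjustment over all probesets. Within-array differences were tested by exact permutation. On simulated data with 200 of 23999 probesets changed, the fit recovered 0 at a log2 change of 1, 113 at 2 (11 false calls) and 173 at 4 (25 false calls). The genes and lists were chosen with earlier results of these data known. Of the probesets, 10069 had 1 symbol in the array annotation, 198 had more and 13732 had none, and that of the study was read for 2551 probesets. Named are all members, the 3 genes of lowest p in each pathway list, called marker genes and the 3 most alike genes per member. The other marker genes named were chosen after their values were seen. CYBB was matched as GP91-PHOX. Alternatives were no further scaling, quantile normalization, leaving out dim probesets (fewer than 2 gilts of a breed at 64), a floor of 32, an intensity trend, an unmoderated fit, Storey q-values, calling at 0.05, a block for replicate number, each gilt omitted in turn and, for pathway genes, averaging a gene's probesets.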

Additional observations from a re-analysis of the deposited data

Results flagged for a closer look

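A gilt far from its group was sought in each breed at each of the 15 probesets, 30 groups of 4 gilts in all. The measure was the gap of the extreme gilt to its nearest neighbour as a share of the whole range on the log2 scale, against Dixon's 95% critical value for 4 samples. Chance alone sets off about 1 in 20 groups, and 2 of 30 were set off. Yorkshire gilt 4 was lowest for CD14 at Ssc.4978.1.S1_at (share 0.844), with a centred signal of 106 beside 186 to 207 in the other Yorkshire gilts, and the same gilt was the lowest Yorkshire gilt for LY96 and for all 5 TLR4 probesets. Without it the log2 difference of CD14 was 0.38. Yorkshire gilt 3 was lowest for MYD88 at Ssc.23492.1.A1_at (share 0.862), with a signal of 12.5 beside 21.4 to 23.3, all near background.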

How the results depend on the processing

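The number of the 15 probesets called was 0 with the main settings and 1 (LY96) without dim probesets, with a floor of 32, with an intensity trend and with Storey q-values. It was 0 under all other settings run, including every omission of a gilt. Over all probesets 218 were called (97 toward Meishan, 121 toward Yorkshire), 580 without dim probesets, 863 with the floor, 626 with the trend, 532 with Storey q-values and 60 at a threshold of 0.05. Omitting a gilt gave 72 calls (Meishan 4 omitted) to 205 (Meishan 1), with 108 for Meishan 2, 89 for Meishan 3, 111 for Yorkshire 1, 106 for Yorkshire 2 and 92 for Yorkshire 3. Same-numbered gilts did not deviate together (r = -0.0561, 0.089, 0.001 and 0.0407), so the numbers are no pairing. Under a replicate block limma called 0 of 23999 (3327 at an unadjusted p under 0.05), LY96 had an adjusted p of 0.235, and 0 of the 15 were called. Of the 3 partner pairs, each gene at its brightest probeset alone, 2 had an adjusted exact permutation p under 0.1 with all gilts. Only 1 had it once Meishan 3 or 4 or Yorkshire 1, 2 or 3 was omitted, where TLR4 minus CD14 had an adjusted p of 0.129. The difference of TLR4 minus CD14 ranged from -1.72 to -1.16 over the omissions. The pairs were set with the breed differences known from the same arrays and share genes, so these counts are no independent evidence. Values that changed sign were never called. TLR9 ranged from -0.26 (Yorkshire 2 omitted) to 0.52, and MYD88 at Ssc.23503.1.A1_at from -0.59 (Meishan 2 omitted) to 0.85, with -0.36 for Yorkshire 1 and -0.25 after quantile normalization. Among probeset pairs, Ssc.12781.1.A2_at against Ssc.12781.1.A1_at ranged from -0.19 to 0.024 over the omissions and was 0.052 after quantile normalization, and Ssc.23503.1.S1_at against Ssc.23503.1.A1_at ranged from -0.57 to 1.05. With the floor, Ssc.23503.1.S1_at against Ssc.23492.1.A1_at (0.073) and Ssc.6463.2.S1_at (0.26) and the CD14 pair (0.32) changed sign. The cause was not tested. Ssc.28998.1.A1_at had no value with the floor. Signals near background limit TLR8, TLR9 and the dim probesets, and 4 gilts per breed limit the rest. The simulated recovery at a log2 change of 1 was 0 of 200, with only those 200 of 23999 probesets changed. In the data 14.8% of all probesets had an unadjusted limma p under 0.05. An adjusted p depends on how many probesets differ, so the simulation does not give the recovery in these data.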
